A study of Mus musculus with 2 samples.

Results

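The Hox genes were taken as every row of the deposited table whose identifier is Hoxa, Hoxb, Hoxc or Hoxd followed by a number, which gave 39 of 21937 genes. They form 4 clusters, with 11 genes in Hoxa on chromosome 6, 10 in Hoxb on chromosome 11, 9 in Hoxc on chromosome 15 and 9 in Hoxd on chromosome 2. Within a cluster the genes were ordered by paralog number and divided into anterior (1 to 3, 8 genes), central (4 to 8, 15 genes) and posterior (9 to 13, 16 genes). The cells were feeder-free wild-type embryonic stem cells from mice of a mixed 129Sv and C57Bl/6 background, and RNA sequencing measured their messenger RNA. The ICRF-193 group received 500 nM ICRF-193, a catalytic inhibitor of topoisomerase II, for 16 h, and the DMSO group received the solvent alone for the same time. The series addresses what the catalytic activity of topoisomerase II contributes to transcription. Each group is labelled as 3 replicates, and nothing says that these were separate cultures, so a p-value measures only the spread between libraries, which may be technical.

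The deposited table gives a mean per group and no value per library. Whole reads per library were worked back from the 15 printed digits of each mean, and all 39 Hox genes had a single solution. In either group the library with the largest size factor, the divisor that puts libraries on a common scale, is called A, the next B and the smallest C. These letters are names, not replicate numbers. Libraries A, B and C held 34148161, 32134006 and 29534300 reads in the ICRF-193 group and 47222667, 36805540 and 33704432 in the DMSO group. Values below are normalised reads, the reads of a gene divided by the size factor of its library, unless stated otherwise. Both A libraries stood apart from B and C in many of the Hox genes, and results are therefore given with and without them.

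Hox genes encode homeodomain transcription factors that give cells their position along the head-to-tail axis. In the embryo they are switched on in the order in which they lie in the cluster, from the anterior genes to the posterior ones, and retinoic acid, Wnt and Cdx factors act on them. In embryonic stem cells the clusters are known to be held mostly silent under Polycomb marks over CpG-rich DNA. Hox proteins bind DNA together with TALE homeodomain cofactors of the Pbx, Meis and Pknox families.

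The RefSeq promoter table (build GRCm38.p6) held 24 promoter windows for 22 of the 39 genes. In the 250 bases before the start, these windows had a median of 12.5 CG dinucleotides with a range of 2 to 35, against a median of 6 over all 32851 promoters. More than 6 CG were present in 19 of the 24 Hox windows (79.2%) and in 46.3% of all promoters. The TATA motif TATAAA, searched on both strands, was in 4 Hox windows (16.7%) and in 12.4% of all promoters of this length. The Hox-Pbx motif TGATNNAT, on both strands, was in 4 windows (16.7%), those of Hoxa2, Hoxb1, Hoxb8 and 1 of 2 for Hoxd11, and in 7.68% of all promoters. A match is a run of letters, not a bound site. The following 3 windows are shown because they differ in CG content and belong to genes described below. They are written 5′ to 3′ on the strand of the gene, in lower case with CG in capitals.
Hoxd13 (chr2:74667975-74668224, plus strand): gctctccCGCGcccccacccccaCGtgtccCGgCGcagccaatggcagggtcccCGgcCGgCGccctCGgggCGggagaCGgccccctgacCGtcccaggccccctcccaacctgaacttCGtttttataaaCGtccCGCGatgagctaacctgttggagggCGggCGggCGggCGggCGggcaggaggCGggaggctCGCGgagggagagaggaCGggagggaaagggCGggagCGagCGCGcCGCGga
Hoxa13 (chr6:52260881-52261130, minus strand): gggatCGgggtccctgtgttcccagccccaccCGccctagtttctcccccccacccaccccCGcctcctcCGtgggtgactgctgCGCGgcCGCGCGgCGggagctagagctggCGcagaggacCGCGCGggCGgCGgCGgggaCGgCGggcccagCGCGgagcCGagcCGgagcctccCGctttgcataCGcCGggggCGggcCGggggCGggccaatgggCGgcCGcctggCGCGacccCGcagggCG
Hoxb4 (chr11:96318017-96318266, plus strand): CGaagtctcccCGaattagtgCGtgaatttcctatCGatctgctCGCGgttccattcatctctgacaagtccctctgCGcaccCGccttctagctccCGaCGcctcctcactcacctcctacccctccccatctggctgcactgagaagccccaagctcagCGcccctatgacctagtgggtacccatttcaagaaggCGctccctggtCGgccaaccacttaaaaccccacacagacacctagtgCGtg
Hoxd13 and Hoxa13, both paralog 13 genes, held 31 and 35 CG, the window of Hoxd13 also held TATAAA, and Hoxb4 held 14 CG.

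The clusters were low in these cells. All 39 Hox genes had a mean over both groups below 411, the median of all genes with reads, and the median Hox gene had a mean of 18.3. Reads were found in all 6 libraries for 31 genes, and 16 genes had a mean below 10. Per kilobase of exon, which allows genes to be compared, Hoxb9 had 92.7 normalised reads in ICRF-193 cells and 52.1 in DMSO cells, Hoxc13 had 89.5 in ICRF-193 cells and 29.5 in DMSO cells, and Hoxd13 had 43.5 in ICRF-193 cells and 31.3 in DMSO cells. Library A raised Hoxb9: over libraries B and C alone it had 46.4 per kilobase in ICRF-193 cells and 16.7 in DMSO cells, below Hoxc13 (88.2) in ICRF-193 cells and below Hoxd13 (32.0) in DMSO cells. Hoxa3 had 25.5 per kilobase in ICRF-193 cells and 18.0 in DMSO cells, where Hoxb2 (21.5) and Hoxb4 (21.2) were higher. That order also changed without library A. Over libraries B and C alone, Hoxa3 in DMSO cells (11.4) was slightly above Hoxb4 (11.1) and above Hoxb2 (5.34).

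**Figure D1:**
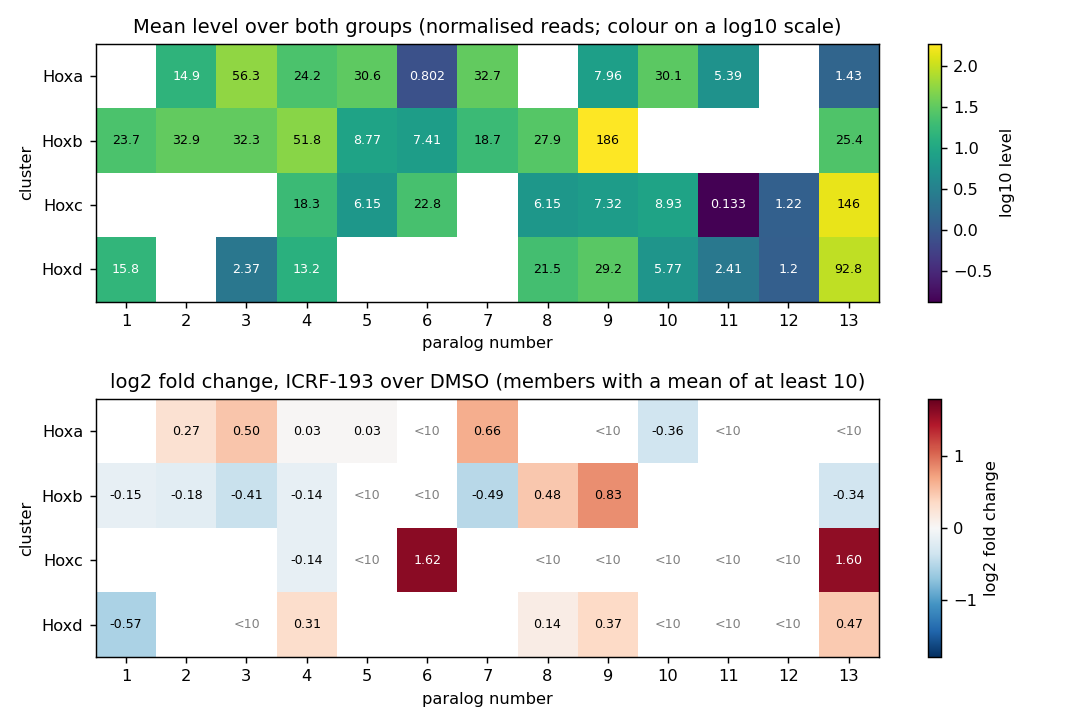
Of the 39 Hox genes, 38 by cluster (rows) and paralog number (columns), with the mean level over both groups in normalised reads in one panel (colour on a log10 scale) and the deposited log2 fold change, ICRF-193 over DMSO, in the other for the genes with a mean of at least 10. Hoxb9 had a mean of 186 normalised reads and Hoxc13 one of 146, and Hoxc6 and Hoxc13 had the largest fold changes among the genes shown.

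Of the 39 Hox genes, 1 rose with ICRF-193 in the authors' deposited table (DESeq, adjusted p under 0.05) and 0 fell. Over all 18759 genes with reads, 5.97% were called higher and 1.26% lower. At an unadjusted p under 0.05 the deposited table had 2 Hox genes higher, Hoxc13 and Hoxc6, and 0 lower, against 11.5% and 5.38% of all genes. The ratio of the group means was above 1 in 25 Hox genes and below 1 in 14, where 50.6% and 49.4% of all genes lay. A second test, limma-voom on the recovered reads, took the 23 Hox genes that had 10 or more reads in 3 or more libraries. It called 1 of them higher and 0 lower, against 9.95% and 5.35% of the 14474 genes tested.

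The gene that rose was Hoxc13, the last gene of its cluster, which is known for its control of hair and nail keratin genes. It had 227, 222 and 212 normalised reads in the ICRF-193 libraries, against 111, 53.6 and 53.0 in the DMSO libraries. Every ICRF-193 library lay above every DMSO library, and the ICRF-193 libraries were close to each other. The means were 220.3 ± 7.51 in ICRF-193 cells and 72.7 ± 33.6 in DMSO cells (SD, n = 3 each). In the authors' deposited table this is a 3.03-fold difference, log2 1.60, with an adjusted p of 1.60e-05. By limma-voom the log2 fold change was 1.65 ± 0.29 (SE) with an adjusted p of 0.0155. In limma-voom the call was lost when DMSO library B (adjusted p = 0.0752), DMSO library C (0.0624), ICRF-193 library B (0.0699) or ICRF-193 library C (0.0596) was left out, with log2 fold changes of 1.48, 1.48, 1.65 and 1.68 in that order.

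Among the other posterior genes, Hoxd13 and Hoxa13 pattern digits and the urogenital tract. Hoxd13 had 94.4, 115 and 114 normalised reads with ICRF-193, against 74.0, 81.3 and 77.8 with DMSO. The groups did not overlap, but the 1.39-fold difference did not pass in the authors' deposited table (log2 0.47, adjusted p = 0.509). Hoxa13 had few reads, with 1.004, 0 and 0 normalised reads in ICRF-193 libraries and 5.57, 1.98 and 0 in DMSO libraries. Summed over the 4 paralog 13 genes, the ICRF-193 libraries held 360.4, 351 and 341 normalised reads and the DMSO libraries 228, 161 and 155. Hoxc13 and Hoxd13 made up most of each of these sums. Hoxb9 was the highest Hoxb gene, with 477, 124 and 114 in ICRF-193 cells, against 316, 39.7 and 46.5 in DMSO cells. Each library A was far above its B and C, and the 1.78-fold difference did not pass in the authors' deposited table (adjusted p = 0.913). Hoxd9, with 52.2, 22.8 and 23.6 in ICRF-193 libraries and 51.7, 12.9 and 11.9 in DMSO libraries, overlapped between the groups.

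Among central genes, Hoxc6, which acts in the thoracic region, had 46.2, 30.1 and 26.9 normalised reads in ICRF-193 libraries. In the DMSO libraries it had 24.7, 8.93 and 0. The groups did not overlap, and the 3.07-fold difference did not pass in the authors' deposited table (log2 1.62, adjusted p = 0.160). Its size rests on single libraries, since the limma-voom log2 fold change of 2.65 was 3.92 without DMSO library A and 1.12 without DMSO library C, which held 0 reads. Hoxa7 had 50.2, 35.3 and 34.8 with ICRF-193, against 38.2, 11.9 and 25.9 with DMSO, and its groups overlapped. Hoxb4, known for its role in blood stem cells, had 104, 19.7 and 23.6 in ICRF-193 cells, against 106, 24.8 and 32.4 in DMSO cells. These libraries differed far more by library A than by group.

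Among anterior genes, Hoxa3, needed for thymus and parathyroid, had 109, 43.5 and 44.9 with ICRF-193, against 81.2, 30.8 and 28.1 with DMSO. Hoxd1 was the only gene with all ICRF-193 libraries (11.04, 11.4 and 15.7) below all DMSO libraries (20.7, 19.8 and 16.2).

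**Figure D2:**
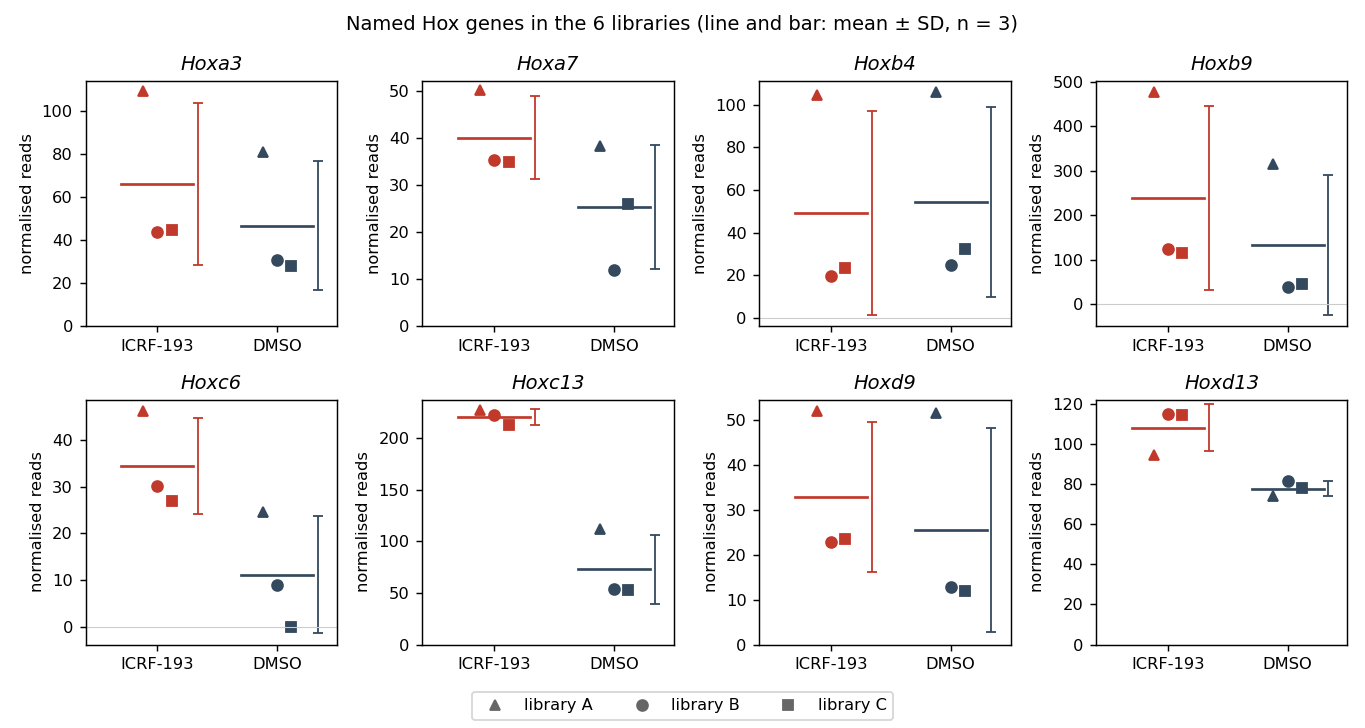
Normalised reads per library for the named Hox genes, ICRF-193 left of DMSO, with the mean and SD (n = 3 each). In Hoxc13 the 3 ICRF-193 libraries lie between 212 and 227, above the 3 DMSO libraries at 53.0 to 111, whereas in Hoxb4 the points separate by library A in both groups.

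In all, 6 Hox genes had every ICRF-193 library above every DMSO library (Hoxc6, Hoxc13, Hoxd3, Hoxd10, Hoxd12 and Hoxd13) and Hoxd1 had the reverse. Of all genes with a single solution, 18.2% lay above and 14.7% below in this way, so 6 of 39 and 1 of 39 are not above that background. Of those above, Hoxd3, Hoxd10 and Hoxd12 had a mean below 10 and too few reads to be tested by limma-voom with its filter. Hoxd3 had 3 reads in each ICRF-193 library and 2, 1 and 2 in the DMSO libraries. Hoxd10 had 6.02, 10.4 and 10.1 normalised reads with ICRF-193, against 3.98, 1.98 and 2.16 with DMSO. Hoxd12 had 5.02, 1.04 and 1.12 with ICRF-193 and 0 reads with DMSO, where a count of 0 allows a mean of up to 0.941 normalised reads (3 reads over the group, counting error only). Hoxc11 had 0 reads with ICRF-193, which allows a mean of up to 1.05, and a single read over the DMSO libraries.

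The remaining genes did not pass in the authors' deposited table. In Hoxb, where 7 of 10 ratios were below 1, Hoxb1, which sets the identity of a hindbrain segment, had 29.1, 22.8 and 15.7 normalised reads in ICRF-193 libraries and 40.6, 15.9 and 18.4 in DMSO libraries. Hoxb3 had 70.3, 6.22 and 6.73 with ICRF-193, against 75.6, 10.9 and 23.8 with DMSO, and Hoxb7 had 26.1, 10.4 and 10.1 with ICRF-193, against 26.3, 19.8 and 19.5 with DMSO. Hoxb8, a regulator of myeloid cells, had 61.2, 10.4 and 25.8 in ICRF-193 cells and 50.1, 8.93 and 10.8 in DMSO cells. In all 4 of these genes library A was the highest of its group and the ranges of the groups overlapped.

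In Hoxa, Hoxa5, needed for lung development, had 42.2, 27.0 and 23.6 with ICRF-193 and 40.6, 28.8 and 21.6 with DMSO, a log2 fold change of 0.03 in the authors' deposited table. Hoxa10, which acts in the uterus and the lumbar region, had 51.2, 13.5 and 14.6 with ICRF-193, against 62.9, 14.9 and 23.8 with DMSO. In Hoxd, Hoxd8 had 35.1, 16.6 and 15.7 in ICRF-193 libraries and 42.2, 14.9 and 4.32 in DMSO libraries, and Hoxd4 had 21.1, 8.29 and 14.6 in ICRF-193 libraries and 23.1, 7.94 and 4.32 in DMSO libraries. In both, library A was lower with ICRF-193 than with DMSO, while libraries B and C were higher. Hoxc4, Hoxc5, Hoxc8, Hoxc9, Hoxc10 and Hoxc12 all overlapped between the groups, with a mean with ICRF-193 that ran between 0.680 (Hoxc12) and 17.4 (Hoxc4), and with DMSO between 1.75 (Hoxc12) and 19.2 (Hoxc4). The least read genes with reads in both groups were Hoxa6, with 4 reads in ICRF-193 library A and 1 in DMSO library A, and Hoxc12.

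By cluster, the ratio was above 1 in 8 of 11 Hoxa, 3 of 10 Hoxb, 6 of 9 Hoxc and 8 of 9 Hoxd genes. The median log2 fold change of the genes with reads in both groups, ICRF-193 over DMSO, was 0.27 in Hoxa, −0.16 in Hoxb, 0.57 in Hoxc and 0.42 in Hoxd, against −0.00 over all genes. By position it was 0.06 in anterior, 0.31 in central and 0.42 in posterior genes, with ratios above 1 in 4 of 8, 11 of 15 and 10 of 16. These are descriptions with no test, and many members had few reads. Leaving out a single library moved all of them widely and turned the sign of all but Hoxd. Without DMSO library A the medians were 0.72 in Hoxa, 0.73 in Hoxb, 1.76 in Hoxc and 1.24 in Hoxd, and 0.83 in anterior, 1.16 in central and 1.42 in posterior genes. Without ICRF-193 library A they were −0.08 in Hoxa, −1.03 in Hoxb, −0.44 in Hoxc and 0.26 in Hoxd, and −0.23 in anterior, −0.33 in central and −0.14 in posterior genes. With both A libraries left out the medians were 0.16 in Hoxa, −0.35 in Hoxb, 0.77 in Hoxc and 0.90 in Hoxd. By position they were then 0.14 in anterior, 0.76 in central and 0.90 in posterior genes, so every sign was kept. Summed over the 39 genes, the ICRF-193 libraries held 2350, 1221 and 1188 normalised reads and the DMSO libraries 1869, 725 and 722.

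Library A set most of the spread. Of the 23 Hox genes with a mean of at least 10, 21 were highest in library A of both groups (91.3%), against 35.4% of 14386 genes and 29.5% of the 5028 genes in the same range of level. Library A was at least 2 times the mean of B and C in both groups in 9 of these 23 (39.1%), against 4.0% of all genes and 6.92% in the same range. The exceptions were Hoxd1 and Hoxd13. The median ratio of A to B and C over the Hox genes was 2.0 in ICRF-193 cells and 2.37 in DMSO cells, and in Hoxb it was 3.69 and 4.03, whereas over all genes it was 0.965 and 0.997. Hoxb2 was the plainest case, with 78.3, 5.18 and 8.98 normalised reads in the ICRF-193 libraries and 87.6, 10.9 and 6.48 in the DMSO libraries.

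**Figure D3:**
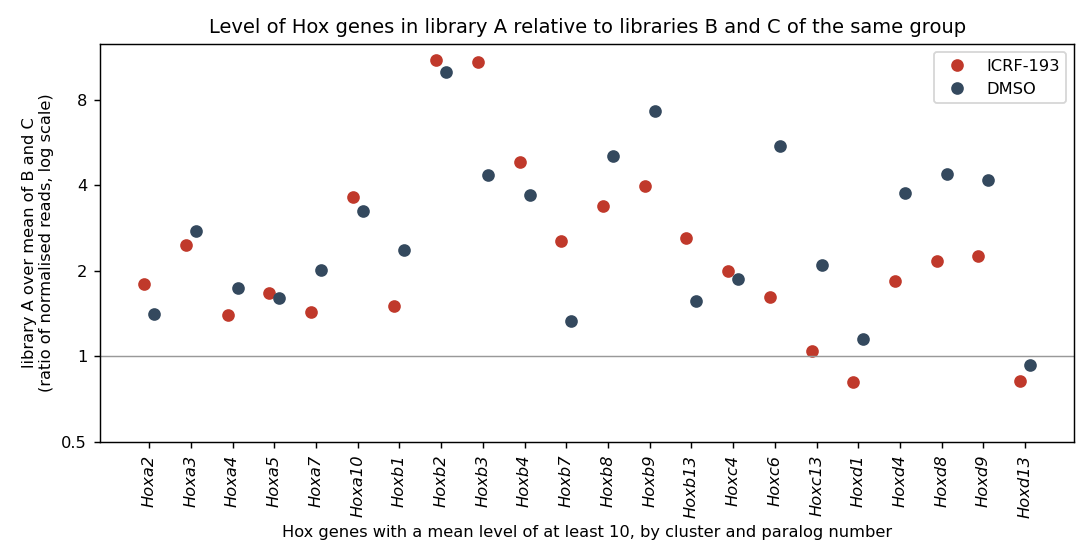
Level in library A over the mean of libraries B and C of the same group for Hox genes with a mean of at least 10, ICRF-193 and DMSO. Most genes lie above 1, up to 11.1 for Hoxb2 in ICRF-193 cells, while Hoxd13 lies below 1 in both groups (0.822 and 0.930).

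Some markers of other cells moved with library A as well. Of 13 fibroblast and feeder cell markers listed, 12 were in the table. Of these, 9 were highest in library A of both groups, against 35.4% of all genes with a mean of at least 10. The summed level of the 12 markers was 21419, 3530 and 2963 normalised reads in ICRF-193 libraries A, B and C, and 18764, 2074 and 2152 in DMSO libraries A, B and C. The collagen gene Col1a1 made up most of it, with 15180.3 in ICRF-193 library A and 12908 in DMSO library A, while Lum was at or near 0 in all libraries. Thy1 was lowest in library A of both groups, at 353, 381 and 469 with ICRF-193 and 185, 281 and 311 with DMSO. All 4 primitive endoderm markers were highest in library A of both groups, but only 2 of 8 mesoderm and 1 of 7 neural markers were. Of the 6 embryonic stem cell markers, 2 had a single solution, Nanog and Zfp42, and both were also highest in library A of both groups. Nanog had 884, 287 and 303 normalised reads with ICRF-193 and 1089, 580 and 438 with DMSO. Zfp42 had 4729, 3939 and 3665 with ICRF-193 and 9861, 8209 and 6394 with DMSO. The neural markers summed to 6181, 8799 and 8929 normalised reads in ICRF-193 libraries A, B and C. In DMSO libraries A, B and C they summed to 4731, 6831 and 6743. Tubb3 and Neurod1 made up most of each of these sums. Sox1 went the other way, at 113, 60.1 and 51.6 with ICRF-193 and 215, 178 and 118 with DMSO. The mesoderm markers summed to 1010, 776 and 731 in ICRF-193 libraries A, B and C, and to 513, 410 and 432 in DMSO libraries A, B and C. Of the fibroblast markers, 0 passed at an adjusted p under 0.05 in the authors' deposited table, with 1 at an unadjusted p under 0.05, and 0 passed by limma-voom. With a term for library A in limma-voom, 4 of the 12 were higher, Col1a1 (adjusted p = 0.00693), Thy1 (0.00118), Pdgfrb (0.0182) and Prrx1 (0.00938), and 0 lower, against 27.6% and 31.4% of all genes tested. Lum had too few reads to be tested by limma-voom. The part of such cells in the Hox values was not tested, and in bulk RNA a different number of cells and a different amount of RNA per cell cannot be told apart. The embryonic stem cell factor Pou5f1 (Oct4) was abundant in both groups, at 32352 in ICRF-193 cells and 42678 in DMSO cells in the authors' deposited table. Of 6 embryonic stem cell markers 1 fell, Zfp42 (ratio 0.504, adjusted p = 0.00186), of 8 mesoderm markers 2 rose, Meox1 and Mesp2, and of 7 neural markers Neurod1, Neurog2 and Nkx2-2 rose and Pax6 fell in the authors' deposited table, where 5.97% of all genes were called higher and 1.26% lower.

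With a term for library A in limma-voom, 6 of the 23 Hox genes were higher and 0 lower, against 27.6% and 31.4% of all genes. The share of Hox genes higher is thus near the background, whereas the share lower is below it. This background was not matched to the level of the Hox genes. They included Hoxb9 (log2 0.87, limma-voom adjusted p = 0.00130), Hoxc13 (1.57, adjusted p = 6.93e-05), Hoxd13 (0.47, adjusted p = 0.0197), Hoxc6 (2.11, adjusted p = 0.0233) and Hoxa3 (0.50, adjusted p = 0.0346). With both A libraries left out, 6 were higher, Hoxa7, Hoxb9, Hoxc6, Hoxc13 and Hoxd13 among them, and 0 lower, against 25.6% and 27.6% of all genes. Without the A libraries Hoxb9 had 124 and 114 normalised reads in ICRF-193 cells and 39.7 and 46.5 in DMSO cells. Whether the response differed between A and the other libraries was tested with an interaction term in limma-voom, chosen after the values were seen. It called 0 of 23 Hox genes and 0 of 14474 genes, with 3 and 1152 at an unadjusted p under 0.05. Each group has 1 library A, so the spread in this test came from libraries B and C alone, and the 0 calls do not show that the responses were alike.

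The other limma-voom settings are read against their own background in the same way. With total read scaling, Hoxc13 was the 1 Hox gene called higher and 0 were lower, against 12.9% and 2.42% of all genes. With TMM scaling the counts were also 1 and 0, against 9.4% and 6.46%, and with no filter on low counts 1 and 0, against 8.01% and 3.58%. Without ICRF-193 library A they were 1 and 0, against 9.19% and 3.45%, and without DMSO library A 3 Hox genes, Hoxc6 and Hoxc13 among them, were higher and 0 lower, against 11.6% and 8.47%. Leaving out another library gave 0 and 0, against 3.41% and 0.643% of all genes without ICRF-193 library B, 3.73% and 0.795% without ICRF-193 library C, 3.23% and 0.663% without DMSO library B, and 4.01% and 1.15% without DMSO library C.

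**Figure D4:**
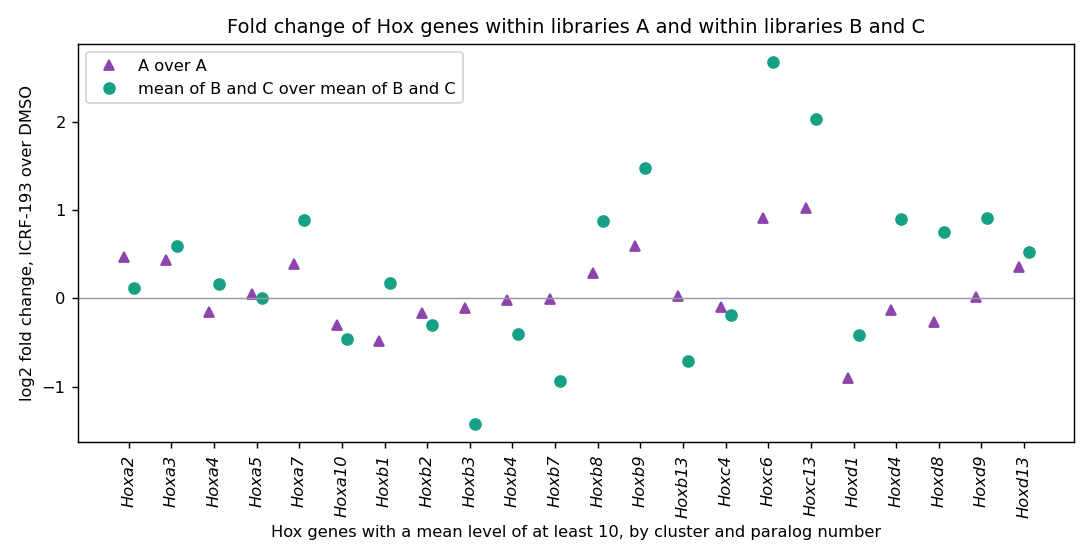
The log2 fold change, ICRF-193 over DMSO, of each Hox gene with a mean of at least 10, computed between the A libraries and between the means of libraries B and C. Hoxc13 is positive in both, and Hoxb9 is larger between libraries B and C.

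Of the genes that act with or on Hox genes, the 9 TALE cofactors had 0 calls in the authors' deposited table. At an unadjusted p under 0.05 there, 1 was higher and 1 lower, against 11.5% and 5.38% of all genes. The calls in that table given below are read against 5.97% of all genes called higher and 1.26% lower. By limma-voom 0 of the 9 cofactors were higher and 1 lower, Pbx3, against 9.95% and 5.35% of the genes tested. Pbx3 had 443, 445 and 388 normalised reads with ICRF-193 and 636, 773 and 747 with DMSO. In the authors' deposited table its adjusted p was 0.0506. Of 11 upstream regulators 1 rose, the Wnt ligand Wnt3a, with 128, 115 and 138 in ICRF-193 cells against 27.1, 23.8 and 39.98 in DMSO cells (4.20-fold, adjusted p = 1.70e-07 in the authors' deposited table). Cdx2, a caudal factor that acts on central Hox genes, had 277, 193 and 187 with ICRF-193 and 156, 107 and 81.0 with DMSO, and did not pass (adjusted p = 0.0666 in the authors' deposited table). With a term for library A in limma-voom, 5 of these 11 regulators were higher and 2 lower, against 27.6% and 31.4% of the genes tested. Cdx2 (limma-voom adjusted p = 0.000165) and Cdx1 (0.000113) were among those higher in that setting. Of 19 retinoic acid pathway genes 2 rose, both of them retinaldehyde dehydrogenases that make retinoic acid. Aldh1a3 had 174, 206 and 193 in ICRF-193 libraries, against 86.0, 88.3 and 69.2 in DMSO libraries (2.35-fold, adjusted p = 0.00142 in the authors' deposited table). Aldh1a1 was low, at 19.1, 16.6 and 38.2 with ICRF-193 and 5.57, 3.97 and 1.08 with DMSO (6.95-fold, adjusted p = 0.0191 in the authors' deposited table). Of the 5 ParaHox and Evx genes, relatives of the Hox genes, 1 rose, Gsx1, and Evx2 had no reads. Gsx1 had 99.4, 64.3 and 118 in ICRF-193 cells against 28.7, 25.8 and 33.5 in DMSO cells (3.20-fold, adjusted p = 0.000700 in the authors' deposited table).

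Of the 24 protein-coding genes that flank the 4 clusters, 3 on each side, 1 rose and 2 fell in the authors' deposited table, against 5.97% and 1.26% of all genes. By limma-voom 1 was higher and 4 lower, with Skap2 and Cbx3 added, against 9.95% and 5.35% of the genes tested. Evx2, Cbx5 and Atp5g3 were not tested by limma-voom. Ttll6, a tubulin glutamylase gene next to Hoxb13, had 863, 1462 and 1361 normalised reads in ICRF-193 libraries, against 207, 155 and 119.95 in DMSO libraries (7.65-fold, adjusted p = 1.49e-09 in the authors' deposited table). Hoxb13 itself had 38.1, 14.5 and 14.6 in ICRF-193 libraries and 37.4, 23.8 and 23.8 in DMSO libraries, with overlapping groups. Cbx1 beyond Hoxb1 and Hnrnpa1 beyond Hoxc4 were lower, at a ratio of 0.609 (adjusted p = 0.0468) and 0.559 (adjusted p = 0.0192) in the authors' deposited table. The antisense gene Hoxa11as had 6.02, 7.26 and 5.61 with ICRF-193 and 3.98, 0 and 0 with DMSO and was not called. In the GRCm38 annotation its exons share 800 bases with those of Hoxa11 on the opposite strand, and the labels do not say whether the library kit keeps strand, so the values of both genes are uncertain.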

How the data were processed

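The deposited table compares ICRF-193 with DMSO. TopHat, HTSeq, DESeq and build mm9 are named in the submitters' processing notes; versions, annotation and settings are not given in the sources used here. Each group has 1 deposited column of signal, in which the authors averaged reads scaled by size factors. The deposited fold change is a ratio, ICRF-193 over DMSO, and the deposited log2 column is its log2. The p-values deposited beside them come from the authors' DESeq test, raw and Benjamini-Hochberg adjusted.

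Whole reads per library were worked back from the 15 printed digits. Of 18759 genes with reads, 18206 had a single solution and 553 of high level had several. For these the combination of least spread was used, in the library totals and in the recomputed size factors. The library totals rest in part on this choice, and they enter the total read and TMM scaling. Size factors recomputed from the reads differed by at most 0.0555%. The procedure was also run on simulated data, in which library A was shifted alike in both groups. The outcome of that run is not given here, so it is no check on the values above. Reads were tested with limma-voom (R 4.3.3, limma 3.58.1) where 3 or more libraries had 10 or more reads, two-sided and adjusted over all genes tested. Alternatives were a term for library A, leaving out both A libraries or each library, total read and TMM scaling, no filter, a pseudocount of 10 and level minimums of 10 and 100.

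Members, lists and tests were chosen with earlier results of these data known. Named Hox genes are those called in a test, the 2 of highest level in each cluster, the 5 largest changes with at least 20 normalised reads in a group, and those without reads in a group; the other Hox genes given with values were chosen after their values were seen. Exon lengths and promoters come from GRCm38 annotation, not from mm9, and no coordinate was carried between builds. 1 Hox gene is counted in the totals and medians but is not reported here by itself.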

Additional observations from a re-analysis of the deposited data

How the results depend on the processing

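The count of Hox genes higher with ICRF-193 was 1 in the deposited test, also at an adjusted p under 0.1 or 0.01, and 1 in limma-voom, with total read or TMM scaling or no filter. It was 6 with a term for library A and 6 without both A libraries, and 0 to 3 when 1 library was left out, 3 being without DMSO library A. The count lower was 0 throughout. Leaving out each library moved the median log2 fold change between −0.26 and 1.09 over all Hox genes, −0.08 and 0.72 in Hoxa, −1.03 and 0.73 in Hoxb, −0.44 and 1.76 in Hoxc, 0.18 and 1.24 in Hoxd, −0.23 and 0.83 in anterior, −0.33 and 1.16 in central and −0.14 and 1.42 in posterior genes. Of the 23 Hox genes tested by limma-voom, 11 turned direction in at least 1 of 11 alternatives (25 of 253 pairs, 21 of them with 1 library left out), among them Hoxa4, Hoxa5, Hoxb1, Hoxb2, Hoxb8 and Hoxd8. Hoxb4 was at −0.14 in the deposited table and at −0.30 by limma-voom with all libraries. By limma-voom it was 0.38 without DMSO library A, 0.15 without ICRF-193 library B, 0.0041 without ICRF-193 library C and −1.08 without ICRF-193 library A. The cause was not tested. Total read scaling moved the median log2 fold change of all genes with a single solution from 0.01 to 0.14. No paired analysis was possible because the labels give each group as a single entry and the recovered libraries carry no numbers. The 16 Hox genes with a mean below 10 hold too few reads for a firm comparison.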
